A study of Ovis aries with 6 samples.

Results

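Basal keratinocytes of the sheep rumen epithelium were picked out nucleus by nucleus from their transcripts. A nucleus was counted as basal when at least 4 of 6 basal genes (TP63, KRT15, SOX6, CDH13, FRAS1 and GRIP1) had a unique molecular identifier (UMI, 1 counted RNA molecule). It could hold at most 1 of 5 cell division genes (ANLN, CENPF, TOP2A, DIAPH3, ASPM), at most 1 of 3 genes of the spinous layer above (DSC1, DSG1, SERPINB13), and no UMI of PTPRC, which encodes the leukocyte surface protein CD45. Nuclei entered with 500 genes or more and no more than 10% of UMIs from mitochondrial genes. Of these 40419 nuclei 3273 met the rule, which is 8.10%. All 4, 5 or 6 basal genes were present in 1186, 1408 and 679 of them, respectively.

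The nuclei came from frozen ventral-sac rumen epithelium of 6 male lambs, 1 droplet library per animal. The study belongs to work on grazing sheep given supplementary feed, and its groups are named MGNS and MGHS, with 3 lambs each. The labels spell out neither name and give no age, breed or ration, so every difference is written as MGHS against MGNS. Sheep were chosen at random within each group per the labels, which makes the animal the replicate.

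The rumen is lined by a stratified epithelium. Its basal cells sit on a basement membrane, held there by hemidesmosomes, and divide to replace the spinous and granular cells above, which flatten and cornify. TP63 is the transcription factor that keeps stratified epithelia in this state, and KRT15 is a keratin of their basal layer. The epithelium takes up short-chain fatty acids from fermentation and turns part of the butyrate into ketone bodies.

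Basal nuclei numbered 360, 465 and 610 in the MGNS lambs and 403, 787 and 648 in the MGHS lambs, in the order of their replicate numbers (MGNS 1, 2 and 3, then MGHS 1, 2 and 3), which holds for all such values below. Median depth per basal nucleus was 8432, 7434 and 6424 UMIs in the MGNS lambs and 7519, 7129 and 7077 UMIs in the MGHS lambs, so depth overlapped between the groups (two-sided exact permutation test, p = 0.8, n = 3 against 3, for which 0.1 is the smallest p possible). All libraries together held 268011559 UMIs over 67553 barcodes, of which 27043 barcodes had too few genes. Between 6 and 20 barcodes were shared by any pair of libraries among kept nuclei, and 1 among basal nuclei. Levels below are CPM: the UMIs of a gene, summed over an animal's basal nuclei, were divided by the total of that sum and scaled to the same total in every animal.

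The 6 genes of the rule are described without a test, since they chose the nuclei. TP63 stood at 2469.9, 2699.9 and 2438 CPM in the MGNS lambs and 2451, 1859.7 and 1653 CPM in the MGHS lambs. KRT15 stood at 1915, 897 and 2227 CPM in the MGNS lambs and 1878, 2702 and 1792 CPM in the MGHS lambs. These levels overlapped between the groups, as did those of SOX6, FRAS1 and GRIP1. CDH13, a cell surface cadherin without a cytoplasmic tail, measured 2316, 2307 and 2529 CPM in the MGNS lambs and 2050.2, 1467 and 1461 CPM in the MGHS lambs, and here the MGHS animals were all below the MGNS animals. Detection was uneven among the 6 genes. TP63 had a UMI in 96.1% to 99.8% of an animal's basal nuclei and FRAS1 in 26.2% to 54.3%. In nuclei with at least 2 PTPRC UMIs, called PTPRC nuclei below, the same shares were 4.84% to 13.9% and 0.399% to 0.794%, at median depths of 2681.5 to 4226 UMIs. After thinning every nucleus to 2000 UMIs, TP63 was seen in 83.1% to 93.8% of basal and 2.83% to 7.87% of PTPRC nuclei. Just inside the threshold, nuclei with 4 of the 6 genes held 1989 ± 472 CPM of TP63, and 1097 nuclei just outside it, with 3 genes, held 1043 ± 436 CPM (mean ± SD, n = 6). Median depth was 5256 to 7657 UMIs inside and 4046 to 6026 UMIs outside.

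The label was checked on genes that the rule did not use, and it held. KRT5, the type II keratin of basal cells, measured 1048 ± 223 CPM against 34.4 ± 18.7 CPM in spinous nuclei. COL17A1, the collagen of the hemidesmosome, measured 227 ± 41.9 CPM against 4.27 ± 2.45 CPM. ITGA6 and ITGB4 form the laminin-binding integrin of the hemidesmosome. ITGA6 stood at 262 ± 52.8 CPM against 9.38 ± 2.60 CPM and ITGB4 at 136 ± 15.5 CPM against 2.01 ± 1.31 CPM. All 4 genes were higher in basal than in spinous nuclei in 6 of 6 animals, as were DST, LAMA3, LAMB3, TRIM29, BNC1 and EGFR. KRT14, the usual partner of KRT5, was higher in 5 of 6 animals and varied widely, at 395 ± 289 CPM in basal nuclei. FREM2, which works with FRAS1 at the basement membrane in the embryo, was close to absent at 3.06 ± 1.64 CPM. Spinous nuclei here are 1704 nuclei with at least 2 of DSC1, DSG1 and SERPINB13 and at most 1 gene of each other set. DSC1 was not confined to them: it had a UMI in 28.3% to 49.1% of basal nuclei, against 6.48% to 17.4% of the shallower PTPRC nuclei. After the same thinning as for TP63 above, the shares were 10.3% to 20.8% and 5.29% to 11.9%. These ranges overlapped, although the basal share was the higher within each animal. The plot of marker levels by class sets these values side by side.

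**Figure D1:**
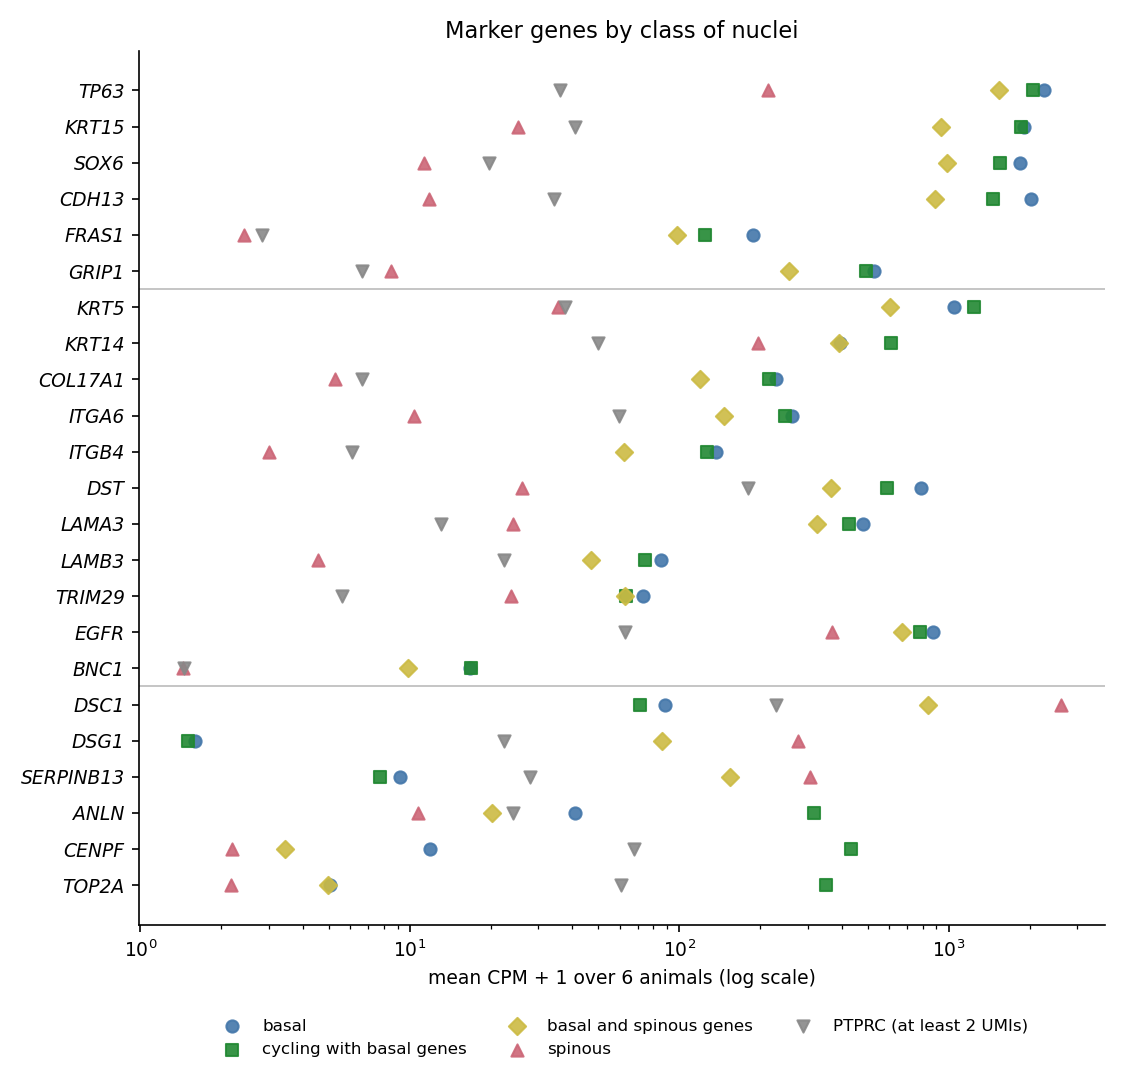
Mean CPM plus 1 (log axis) over 6 animals for the 6 basal genes of the rule (top block), 11 basal markers it did not use (middle) and spinous and cycling genes of the rule (bottom), in basal, cycling, mixed, spinous and PTPRC nuclei. KRT5 and COL17A1 are far higher in basal and cycling nuclei than in spinous nuclei, while KRT14 differs less.

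Genes that attach cells to the basement membrane were high in basal nuclei. Over the 10 hemidesmosome and basal keratin genes the median log2 ratio of basal to spinous nuclei was 2.77 (10 CPM added to each mean), and 9 were higher in 6 of 6 animals. Over all 10041 genes at a measurable level the median was 0.53, with 57.4% higher and 20.6% lower in all 6 animals, so most genes took a larger share of UMIs in basal nuclei. All 13 basement membrane genes at a measurable level were higher in 6 of 6 animals. LAMA3, a chain of laminin-332, stood at 479 ± 86 CPM against 23.2 ± 6.65 CPM. COL4A5, a chain of the type IV collagen network, stood at 247 ± 40.7 CPM against 7.84 ± 2.99 CPM. COL7A1, which forms the anchoring fibrils, stood at 34.1 ± 4.05 CPM against 0.780 ± 0.623 CPM. Among adhesion and guidance genes, the protocadherin PCDH7 and the receptor ROBO1 were strongly present, at 1335 ± 275 and 1681 ± 393 CPM, against 46.6 ± 20.6 and 256 ± 63.8 CPM in spinous nuclei.

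Junction genes split by layer. DSC3 and CDH3, cadherins of the lower layers of stratified epithelia, were higher in basal nuclei in 6 of 6 animals, at 179 ± 16.2 and 26.3 ± 5.89 CPM against 32.4 ± 23.0 and 1.27 ± 1.12 CPM. DSG3, DSC2 and DSP were lower in 6 of 6, with DSP, which ties desmosomes to keratin filaments, at 482 ± 65.1 CPM against 1616 ± 324 CPM. In all, 4 of 20 desmosome and adherens junction genes were higher and 11 lower. Of 24 differentiation genes, 21 were lower in 6 of 6 animals. The exceptions that were higher in every animal were KRT79, at 478 ± 159 CPM against 29.1 ± 18.6 CPM, and PAPSS2, a sulfate donor synthase, at 1136 ± 322 CPM against 188 ± 67.2 CPM.

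In 6 of 6 animals 57.4% of all genes were higher and 20.6% lower in basal nuclei, and most signalling lists leaned the same way. The counts higher and lower were 7 and 0 of 10 for fibroblast growth factor genes, 10 and 0 of 12 for insulin-like growth factor genes, 12 and 2 of 21 for TGF-beta and BMP genes, 9 and 3 of 15 for Wnt genes, 7 and 3 of 12 for Notch genes and 6 and 6 of 14 for epidermal growth factor genes. EGFR, the epidermal growth factor receptor, measured 873 ± 149.99 CPM against 368 ± 59.5 CPM. NRG1, a ligand of the ERBB3 and ERBB4 receptors, measured 1745 ± 772 CPM against 52.6 ± 31.5 CPM, while its receptor ERBB3 was lower, at 53.5 ± 9.13 CPM against 254 ± 44.4 CPM. The EGFR ligands TGFA, HBEGF, AREG and EREG were all lower in basal than in spinous nuclei in 6 of 6 animals, with TGFA at 51.3 ± 28.3 CPM against 485 ± 83.3 CPM. FGFR2, the receptor for FGF7 and FGF10, was higher, at 382 ± 40.1 CPM against 91.9 ± 25.3 CPM. IGF1R, the receptor for insulin-like growth factors, was also higher, at 481 ± 75.9 CPM against 121 ± 25.2 CPM. In the Notch pathway the ligand JAG2 measured 35.6 ± 6.65 CPM against 0.632 ± 0.679 CPM and the receptor NOTCH2 155 ± 32.5 CPM against 405 ± 166 CPM. WNT3A, a Wnt ligand, measured 44.6 ± 13.0 CPM against 1.05 ± 0.679 CPM, and SFRP1, a secreted Wnt antagonist, 101 ± 29.6 CPM against 4.77 ± 2.44 CPM. Of 23 epithelial transcription factors 7 were higher and 10 lower in 6 of 6 animals, BNC2 and GRHL2 among the higher and GRHL1, GRHL3, KLF4 and EHF among the lower. GRHL3, which drives barrier formation, stood at 10.8 ± 7.49 CPM against 209.8 ± 99.8 CPM.

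Genes were then ordered by their ratio of basal to spinous nuclei, among those with at least 50 CPM and without the genes of the rule. Of 16 genes of short-chain fatty acid and pH transport 10 were higher and 5 lower in 6 of 6 animals, and of 17 ion, urea and water transport genes 4 were higher and 9 lower, against 57.4% and 20.6% over all genes. SLC16A1, the monocarboxylate transporter MCT1 that carries lactate, ketone bodies and short-chain fatty acids, came first in that ordering, at 922 ± 247 CPM against 18.5 ± 12.2 CPM (log2 ratio 5.03). Its levels by animal were 916, 619.7 and 686 CPM in the MGNS lambs and 984, 1299 and 1027 CPM in the MGHS lambs. BSG, the chaperone that brings this transporter to the membrane, stood at 742 ± 209 CPM against 102 ± 35.9 CPM. CA12, a carbonic anhydrase of the cell surface, stood at 437 ± 128 CPM against 6.38 ± 1.79 CPM, and the cytosolic CA1 at 8572 ± 4364 CPM against 1629.9 ± 1137 CPM. The exchangers SLC9A2, SLC9A3 and SLC26A3 had the reverse pattern, SLC26A3 at 169.7 ± 149 CPM against 3386 ± 1797 CPM. BDH1, which makes beta-hydroxybutyrate, measured 252 ± 52.0 CPM against 47.4 ± 11.5 CPM. Of 21 genes of ketone and short-chain fatty acid metabolism, 17 were higher in 6 of 6 animals. All 26 oxidative phosphorylation genes and all 73 cytosolic ribosome genes were higher as well, with median log2 ratios of 1.63 and 1.74.

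With the genes of the rule left out, the 25 largest basal-to-spinous ratios ran from a log2 ratio of 5.03 for SLC16A1 to 3.79 for TENM4. Besides genes already given they included PLA2R1, SELENBP1, HSD17B2, ADGRV1, IQGAP2, TMT1A, GALNT18, PDGFC, NHS, TST, FABP4 and PDE8B. SELENBP1 encodes a selenium-binding methanethiol oxidase and TST the sulfur transferase rhodanese, both of sulfur metabolism. SELENBP1 measured 1050.5 ± 407 CPM against 24.3 ± 14.5 CPM and TST 1379 ± 315 CPM against 65.4 ± 30.01 CPM. HSD17B2, which inactivates sex steroids, measured 368 ± 99.3 CPM against 3.04 ± 0.854 CPM. These are descriptions, since the rule chose the nuclei on their transcripts.

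Cycling nuclei with basal genes numbered 1690. Against them the median log2 ratio over all genes was 0.02. Basal nuclei were lower for 13 of 14 genes of the G1/S list and for 4 of 4 measurable genes of the G2/M list in every animal, by median log2 ratios of -0.86 and -2.66, against 11.9% lower in every animal over all genes, but 5 cycling genes entered the rule. RORA, a nuclear receptor, and SH3D21 were higher in basal than in cycling nuclei in 6 of 6 animals. RORA stood at 748 ± 219.6 against 421 ± 70.7 CPM, but was lower than in the rest of the nuclei in 5 of 6 animals and stood at 1623 ± 467 CPM in PTPRC nuclei. PRUNE2 and ERC2 were also among the 10 with the largest ratios. EBF1, PDZRN3, LAMA2, RBMS3 and SLIT3 were among them as well, and each of these was higher still in nuclei outside the basal set in 6 of 6 animals, EBF1 at 106 ± 50.7 CPM in basal nuclei against 412 ± 71.5 CPM in the rest. KRT5 was lower in basal than in cycling nuclei in 6 of 6 animals, at 1048 ± 223 against 1234 ± 214 CPM.

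Basal nuclei also differed among themselves. After thinning to 2000 UMIs, the variance over mean of a gene's UMIs had a median of 1.14 over 3987 genes with a mean of at least 0.1 UMIs. CA1, a cytosolic carbonic anhydrase, was among the 15 with the largest values, with a mean of 15.8 UMIs per thinned nucleus and a variance over mean of 7.55 (median over animals). NRG1 had 3.81 UMIs and a variance over mean of 6.74. RGS6, CNTNAP2, PRKG1, PDE3A, DUSP14 and CACNB2 were in the list with means under 1 UMI. CCL21, a chemokine of lymphatic endothelium, and LAMA2, a laminin chain of connective tissue, were there too. The largest value, 22.2, belonged to SAMD8, a sphingomyelin synthase family gene that was higher in spinous nuclei. PRD-SPRRII, SPINK5, A2M and SLC26A3 shared that pattern.

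Those transcripts of upper layers were spread unevenly over basal nuclei. Over 7 genes chosen after their values were seen (SAMD8, PRD-SPRRII, SPINK5, SLC26A3, CRISP3, FBXO32 and TMPRSS11D), the median basal nucleus held 2, 2 and 3 UMIs in the MGNS lambs and 6, 4 and 7 UMIs in the MGHS lambs, while the highest held 1116. More than 10 such UMIs were found in 403 basal nuclei, which were 3.06, 2.37 and 5.25% in the MGNS lambs and 18.6, 12.8 and 26.7% in the MGHS lambs. The MGHS shares were all above the MGNS shares, which is a description with no test, since all 7 genes had a higher mean in MGHS basal nuclei when they were chosen. Nuclei with more than 10 such UMIs had a median depth of 8866.5 to 14396 UMIs per library, against 6263 to 8398 UMIs for the other 2870 basal nuclei. Of the UMIs of the 7 genes in basal nuclei, nuclei over this limit held 54.1, 24.3 and 67.8% in the MGNS lambs. In the MGHS lambs they held 87.5, 84.8 and 83.4%. Among PTPRC nuclei 4.08% to 7.13% in MGNS and 9.26% to 13.0% in MGHS passed the same limit. Where these transcripts came from was not tested, and the comparisons below are also given without these nuclei.

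Transcripts of other cell types were present as well. The 14 fibroblast markers, led by COL3A1 and COL1A2, summed to 348 to 477 CPM in MGNS and 715 to 1342 CPM in MGHS. Of the 14, 8 were higher in every MGHS animal, against 8.19% over all genes. At least 2 of them were found in 13.9, 11.4 and 16.2% of basal nuclei in the MGNS lambs and 30.3, 16.9 and 51.7% in the MGHS lambs. At least 2 markers of some other cell type, S100A8 and S100A9 included, were found in 2355 of the 3273 basal nuclei. T and NK cell markers summed to 256 to 298 CPM and 212 to 225 CPM and were led by BCL11B. Macrophage and dendritic cell markers reached at most 42.9 CPM and CLEC9A was at 0. Blood endothelial markers summed to 113 to 225 CPM in MGNS and 128 to 239 CPM in MGHS. ATOH1, the Merkel cell factor, was also at 0 in all 6 animals. The neutrophil list was carried by S100A8 and S100A9, which spinous keratinocytes held at 3500.3 ± 871 and 3697 ± 1562 CPM.

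The share of basal nuclei overlapped between the groups. Of all kept nuclei they made up 7.71, 5.88 and 8.55% in the MGNS lambs and 7.09, 12.4 and 7.47% in the MGHS lambs (exact permutation test, p = 0.6, adjusted over 4 such tests 0.8, n = 3). PTPRC nuclei, 12183 in all, numbered 2159, 3451 and 2258 in the MGNS lambs and 1512, 1404 and 1399 in the MGHS lambs. They were thus fewer in every MGHS animal. Of nuclei without any PTPRC UMI the basal share was 20.9, 16.3 and 16.3% in the MGNS lambs and 11.8, 18.1 and 11.5% in the MGHS lambs (p = 0.3, exact permutation test). With that denominator the mean was lower in MGHS, by 4.03 percentage points, whereas with all kept nuclei it was 1.601 points higher, and with at least 5 of the 6 basal genes required the MGHS animals were all above the MGNS animals (exact permutation test, p = 0.1). Cycling nuclei, with at least 2 of the 5 division genes, were counted among nuclei with basal genes and at most 1 spinous gene. They made up 22.2, 25.1 and 24.9% in the MGNS lambs and 35.8, 30.2 and 50.6% in the MGHS lambs. Every MGHS animal was above every MGNS animal, by a mean of 14.8 percentage points (exact permutation test, p = 0.1, adjusted 0.4). After thinning to 2000 UMIs the shares were 10.5, 9.53 and 14.1% in the MGNS lambs and 19.9, 15.6 and 29.1% in the MGHS lambs, again without overlap. Among nuclei with basal genes, those with at least 2 spinous genes made up 16.5, 15.8 and 11.2% in the MGNS lambs and 10.0, 3.55 and 15.8% in the MGHS lambs, and the groups overlapped (exact permutation test, p = 0.3, adjusted 0.6).

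**Figure D2:**
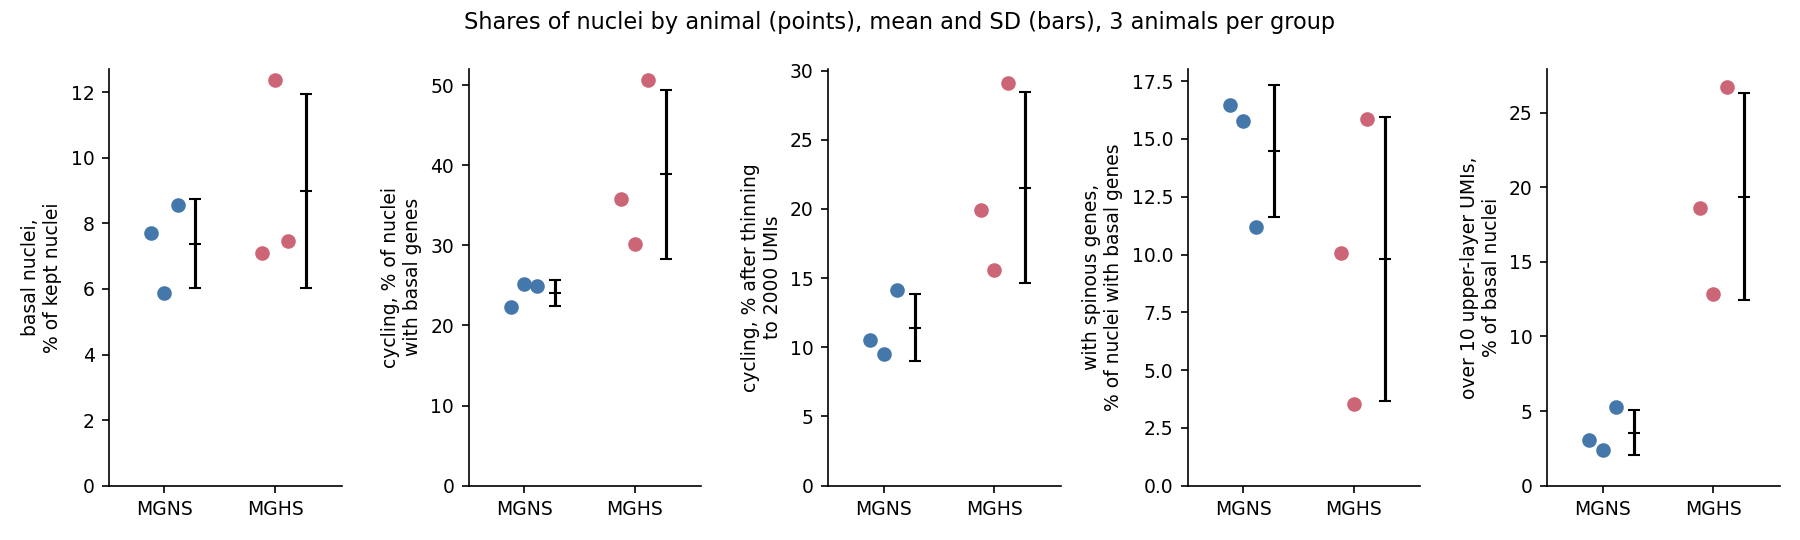
Percent of nuclei per animal for, from left, basal nuclei of all kept nuclei, cycling nuclei before and after thinning, nuclei with spinous genes, and basal nuclei with over 10 upper-layer UMIs; points are animals and bars mean and SD (n = 3). The cycling shares and the upper-layer shares do not overlap between MGNS and MGHS, the other shares do.

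GPX1, SELENOW and IGFBP5 rose 3-fold or more in basal nuclei of MGHS, and MAP3K5, SLC28A3 and CASP1 fell. A further set of genes that rose, such as SLC9A3 and KRT80, belongs to the upper layers. Their changes shrank without the nuclei that hold upper-layer transcripts, which is partly set by how those nuclei were chosen. In all, 26 genes were higher and 4 lower in MGHS at an adjusted p under 0.05, 30 of 13156 tested or 0.228%, with 0.198% called higher and 0.0304% called lower (edgeR quasi-likelihood test, Benjamini-Hochberg adjustment). Groups did not overlap for 22.8% of genes. Of the 30, 23 carry a gene name. The count depended on single animals. It was 0 without MGNS 1, without MGNS 2 and without MGHS 1, where 1719, 1425 and 1719 genes had an unadjusted p under 0.05 in edgeR, against 1856 with all animals. It was 4 without MGHS 3, 64 without MGNS 3 and 56 without MGHS 2. No gene with a name passed in more than 2 of these 6 fits, and MAP3K5 and SOBP passed in none, although all 30 kept their direction in each. Without the 403 nuclei holding upper-layer transcripts, GPX1 alone passed, 1 of 12719 genes or 0.00786%.

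Among genes with a name, 2 antioxidant selenoproteins had the smallest p-values in the higher direction. GPX1, the cytosolic glutathione peroxidase that reduces hydrogen peroxide, stood at 68.0, 35.0 and 53.5 CPM in the MGNS lambs and 323, 277 and 421 CPM in the MGHS lambs. The lowest MGHS animal was above the highest MGNS animal by more than the spread within either group. The log2 fold change was 2.80 ± 0.30 SE, with an adjusted p of 0.0358 in edgeR's quasi-likelihood test, and 2.79 with an adjusted p of 0.0458 without the nuclei holding upper-layer transcripts. Per nucleus this was 434 UMIs per 1000 basal nuclei in MGNS and 2726 in MGHS, against 478 and 864 per 1000 PTPRC nuclei. GPX1 stayed past the threshold in 2 of the 6 fits that left out an animal and in 16 of 20 alternatives in all. SELENOW, a small redox selenoprotein, stood at 59.7, 46.0 and 53.3 CPM in the MGNS lambs and 170.2, 135 and 176 CPM in the MGHS lambs. Here too the groups were far apart, with a log2 fold change of 1.69 ± 0.19 SE (adjusted p = 0.0358, edgeR), and 1.73 without upper-layer nuclei (adjusted p = 0.0517). Of 19 selenoproteins tested these were the only calls. Without overlap 4 were higher and 2 lower, against 8.19% and 14.6% over all genes. The median log2 fold change was 0.21 against 0.03 over all genes, and 0.04 without MGHS 3, 0.14 without MGNS 3 and 0.35 without MGHS 1.

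The wider glutathione and NRF2 group gave no call. Over its 25 genes the median log2 fold change was 0.57, against 0.03 over all genes. Without overlap 9 were higher and 2 lower, against 8.19% and 14.6% over all genes. The median was 0.38 over 24 genes without upper-layer nuclei. GCLM, the modifier subunit of the enzyme that starts glutathione synthesis, stood at 153, 149.5 and 108 CPM in the MGNS lambs and 243, 254 and 263 CPM in the MGHS lambs. All MGHS values were above all MGNS values, at a log2 fold change of 0.99 ± 0.19 SE with an edgeR adjusted p of 0.0782. SOD1 had a log2 fold change of 1.08 ± 0.29 SE with an adjusted p of 0.163. SOD2, the mitochondrial superoxide dismutase, was lower without overlap, as was GSR. NFE2L2, which encodes NRF2 itself, overlapped, at 85.4, 91.7 and 89.8 CPM in the MGNS lambs and 85.2, 93.9 and 90.6 CPM in the MGHS lambs. The median of this list was 0.34 without MGNS 2 and 0.30 without MGHS 3.

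IGFBP5, a secreted binding protein of insulin-like growth factors, rose as well. It stood at 59.7, 55.1 and 53.3 CPM in the MGNS lambs and 152, 212 and 136 CPM in the MGHS lambs. The MGNS animals lay within a narrow band and all MGHS animals were over 2-fold above it, at a log2 fold change of 1.68 ± 0.21 SE (adjusted p = 0.0358, edgeR). PTPRC nuclei held little of it, with 461 UMIs per 1000 basal nuclei in MGNS and 1325 in MGHS, against 32.9 and 55.3 per 1000 PTPRC nuclei. Of 15 genes of the insulin-like growth factor system tested it was the only call. IGFBP6, which prefers IGF2, was higher without overlap, at 18.0, 7.49 and 26.1 CPM in the MGNS lambs and 50.4, 75.1 and 153 CPM in the MGHS lambs (log2 fold change 2.53 ± 0.57 SE, edgeR adjusted p = 0.135). INSR, the insulin receptor, was lower without overlap (log2 fold change -0.45 ± 0.20 SE, adjusted p = 0.349).

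CCN1, CPED1, SPARC and FGF10 rose at low levels. CCN1, a matricellular protein and YAP target, stood at 10.1, 11.2 and 12.2 CPM in the MGNS lambs and 59.1, 29.7 and 40.1 CPM in the MGHS lambs. FGF10, a mesenchymal ligand of FGFR2, stood at 4.14, 7.49 and 10.4 CPM in the MGNS lambs and 50.1, 25.4 and 34.2 CPM in the MGHS lambs, and SPARC, a collagen-binding matrix protein, at 20.1, 23.5 and 22.8 CPM in the MGNS lambs and 61.8, 42.2 and 67.9 CPM in the MGHS lambs. In each case the MGHS animals were all above the MGNS animals. Log2 fold changes were 2.02 ± 0.26 SE for CCN1, 1.70 ± 0.24 SE for CPED1, 1.47 ± 0.22 SE for SPARC and 2.38 ± 0.35 SE for FGF10, with edgeR adjusted p of 0.0410, 0.0452, 0.0490 and 0.0490. The summed fibroblast markers were higher in the same animals, as given above. Basal nuclei held 294 UMIs of FGF10 and 460.1 of SPARC per 1000 nuclei in MGHS, and PTPRC nuclei 135 and 300.3. The 23 secreted matrix genes had a median log2 fold change of 0.97 and 12 were higher without overlap (8.19% over all genes), none of them called. COL3A1, a fibrillar collagen of connective tissue, had a log2 fold change of 1.82 ± 0.29 SE (adjusted p = 0.0556, edgeR). In the 1580 basal nuclei without any UMI of the fibroblast list the median of the matrix list was 0.25 over the 14 genes still tested. COL3A1, COL1A2 and COL1A1 belong to both lists, so this fall is partly set by the choice of nuclei. There SPARC had a log2 fold change of 1.76 with an adjusted p of 0.192. The part of fibroblast transcripts in these results was not tested further.

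The 3 genes with a name that fell were MAP3K5, SLC28A3 and CASP1. MAP3K5 encodes ASK1, a kinase that responds to oxidative stress. It stood at 618, 676 and 672 CPM in the MGNS lambs and 236, 235 and 265 CPM in the MGHS lambs. Both groups were tight and did not come near each other, with a log2 fold change of -1.31 ± 0.18 SE and an edgeR adjusted p of 0.0435. SLC28A3, a concentrating nucleoside transporter, stood at 32.5, 63.1 and 50.5 CPM in the MGNS lambs and 10.8, 11 and 12.5 CPM in the MGHS lambs, and CASP1, the inflammasome protease, at 37.5, 33.4 and 35.8 CPM in the MGNS lambs and 11.1, 5.81 and 8.06 CPM in the MGHS lambs. The MGHS animals were again all below the MGNS animals. SLC28A3 changed by -1.98 ± 0.25 SE and CASP1 by -2.02 ± 0.25 SE on the log2 scale (adjusted p = 0.0410 and 0.0358, edgeR). Without upper-layer nuclei the log2 fold changes were -1.24 for MAP3K5, -1.94 for SLC28A3 and -1.92 for CASP1, with adjusted p of 0.12, 0.12 and 0.135. Of the 4 genes called lower, 3 had more UMIs per basal than per PTPRC nucleus in MGHS, 1 of them more than 2-fold. Of the 26 called higher these counts were 11 and 5. With the level of PTPRC nuclei subtracted, 0 genes were called lower and 2 higher. SLC28A3 was lower in MGHS in spinous nuclei too, at 259 and 33.8 CPM on average. Its change did not differ between the layers past the threshold (interaction, edgeR adjusted p = 0.263).

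PDK4 came next and did not pass the threshold. It encodes the kinase that holds pyruvate back from oxidation. It stood at 272, 285 and 254 CPM in the MGNS lambs and 132, 131 and 107 CPM in the MGHS lambs, a log2 fold change of -1.03 ± 0.16 SE with an edgeR adjusted p of 0.0525. It was higher in basal than in spinous nuclei in 6 of 6 animals, at 197 ± 81.6 CPM against 12.8 ± 5.18 CPM. Further genes were lower without overlap and short of the threshold. Among them, AVEN is an apoptosis inhibitor, ZDHHC21 a palmitoyltransferase, GNA14 a G protein alpha subunit, TAF4B a TFIID subunit and SERPINB1 an inhibitor of neutrophil proteases. NFKB1, TTC27 and NOD2 completed the set, with adjusted p of 0.0546 for AVEN to 0.0782 for NOD2 in edgeR. GNA14 stood at 313, 195 and 278 CPM in the MGNS lambs and 108, 61.0 and 68.5 CPM in the MGHS lambs and SERPINB1 at 216, 156 and 176 CPM in the MGNS lambs and 36.3, 66.1 and 65.8 CPM in the MGHS lambs. Both were lower in every MGHS animal, with log2 fold changes of -1.65 ± 0.27 SE and -1.59 ± 0.28 SE. NRG1, with 2001, 2183 and 2924 CPM in the MGNS lambs and 1262, 798 and 1298 CPM in the MGHS lambs, was lower in every MGHS animal as well, but its log2 fold change of -0.98 ± 0.28 SE had an edgeR adjusted p of 0.187.

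**Figure D3:**
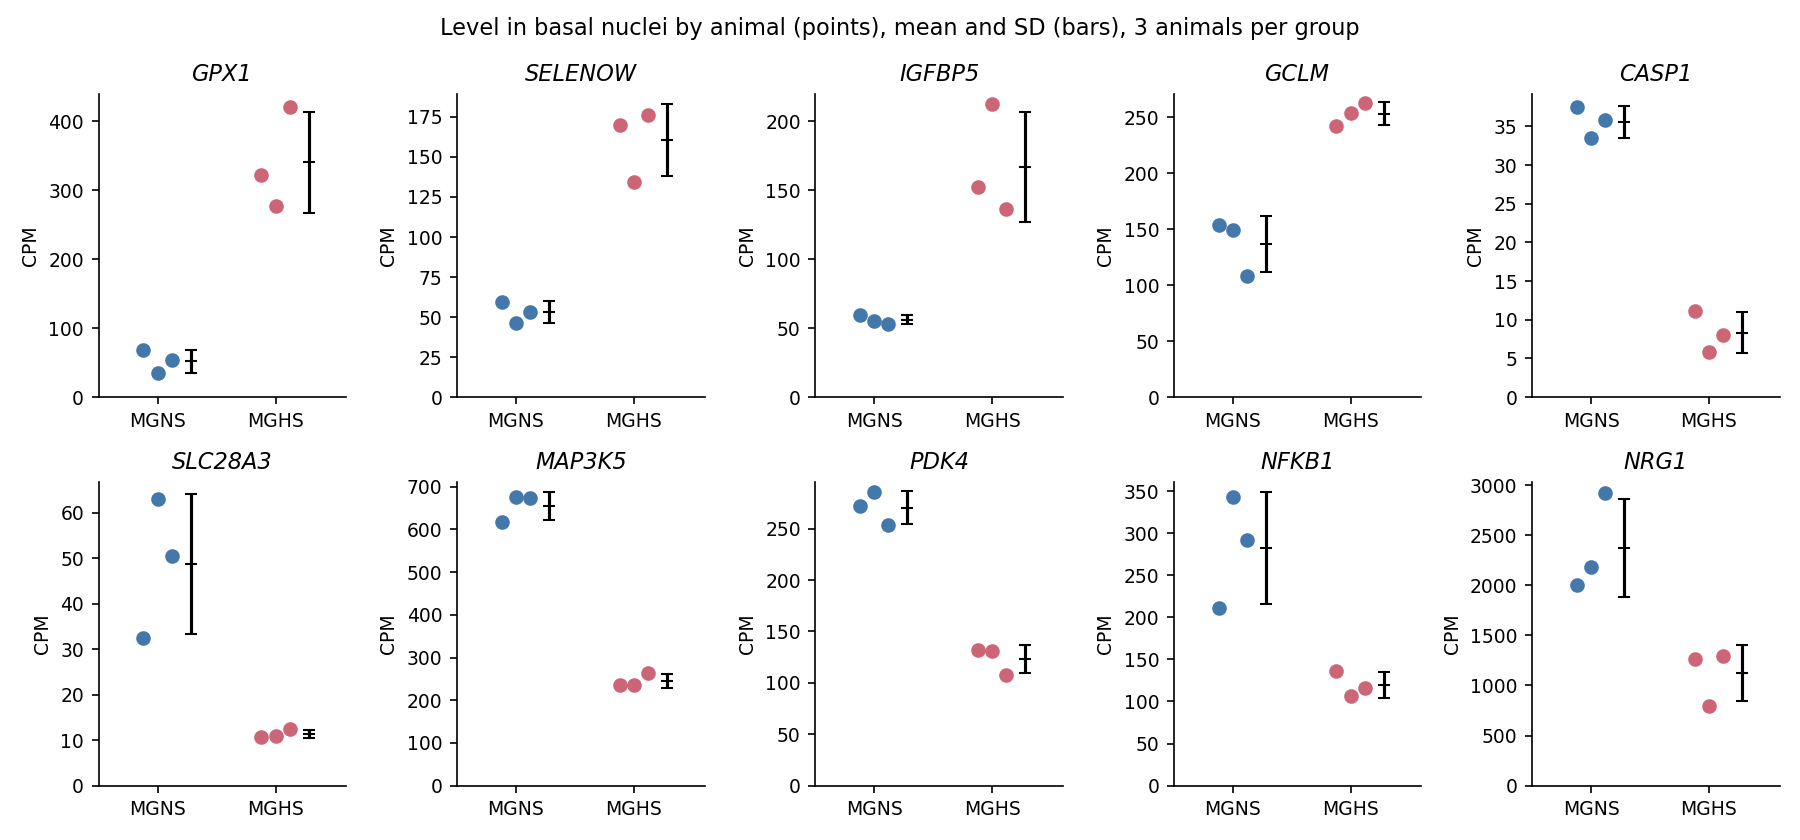
CPM in basal nuclei per animal for genes higher in MGHS (GPX1, SELENOW, IGFBP5, GCLM) and lower in MGHS (CASP1, SLC28A3, MAP3K5, PDK4, NFKB1, NRG1); points are animals, bars mean and SD (n = 3), and each axis starts at 0. In all 10 panels the groups do not overlap, and GCLM, PDK4, NFKB1 and NRG1 did not pass the adjusted threshold.

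Another set of genes that rose moved with the nuclei holding upper-layer transcripts. SLC9A3, an apical sodium-proton exchanger, stood at 7.69, 4.81 and 9.0 CPM in the MGNS lambs and 40.2, 33.4 and 29.9 CPM in the MGHS lambs, a log2 fold change of 2.35 ± 0.27 SE (adjusted p = 0.0358, edgeR). Without those nuclei it was 0.95 with an adjusted p of 0.309. The protease inhibitor A2M went from 2.75 ± 0.33 SE to 1.30, the keratin KRT80 from 2.59 ± 0.34 SE to 0.66 and the lysosomal carboxypeptidase CTSA from 1.79 ± 0.22 SE to 0.13. LGALSL, FAM107B, SPNS2, ERO1A, BNIP3L and SOBP also kept under 50% of their log2 change. Of 25 called genes that could be tested there, 12 kept under 50% and 12 kept at least 75%. Of the 30 called genes, 20 had a higher CPM in spinous than in basal nuclei. SLC9A3 averaged 308 CPM in spinous nuclei, and its basal level was 58.3 UMIs per 1000 basal nuclei in MGNS and 276 in MGHS, against 146 and 306 per 1000 PTPRC nuclei. CCDC9B, AIF1L and PRSS22 were too low to be tested without those nuclei. Against PTPRC nuclei, 14 of the 30 called genes had more UMIs per basal nucleus in MGHS.

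**Figure D4:**
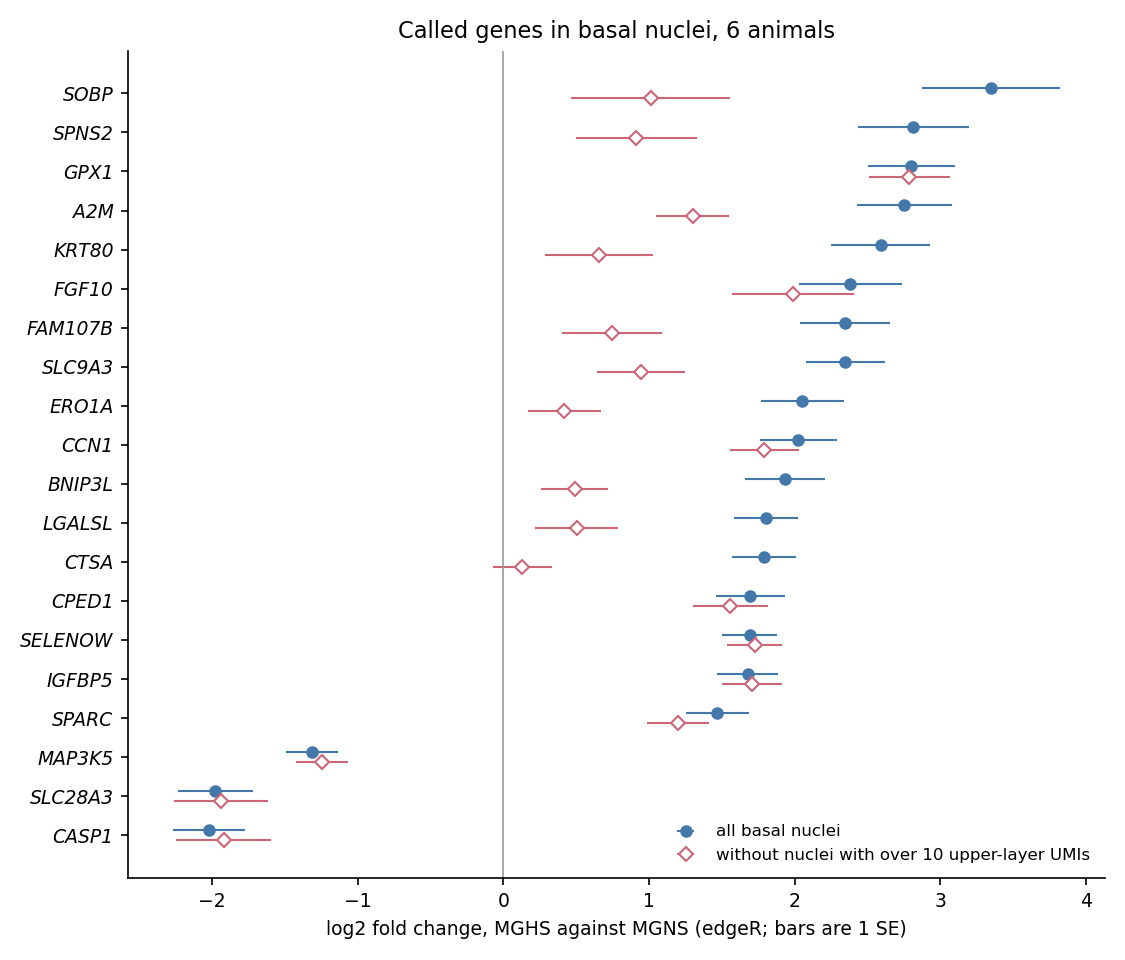
Log2 fold change (MGHS against MGNS, edgeR, bars 1 SE) of called genes with a gene name, in all 3273 basal nuclei (filled) and in the 2870 with at most 10 upper-layer UMIs (open). GPX1, SELENOW, IGFBP5, MAP3K5, SLC28A3 and CASP1 hardly move, while SOBP, SPNS2, KRT80, CTSA and others come close to 0 or lose over 50%.

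The lists that mark the layer held no called gene. Hemidesmosome genes had a median log2 fold change of -0.07 over 10 genes and basement membrane genes of 0.23 over 15, with 3 and 1 genes lower without overlap (14.6% over all genes). The hemidesmosome median ran from -0.15 without MGHS 1 to -0.01 without MGNS 2, and the basement membrane median was 0.07 without MGHS 1 and 0.12 without MGNS 1. KRT5 stood at 1018, 629 and 1241 CPM in the MGNS lambs and 1101, 1077 and 1222 CPM in the MGHS lambs, with overlap. DST, the plakin that links hemidesmosomes to keratin, overlapped too. Of 19 desmosome and adherens junction genes 7 were lower without overlap and 1 higher, against 14.6% and 8.19% over all genes, and none was called, DSG2, CDH1, DSG3 and CTNNA1 among the lower. The median of that list was -0.13, and 0.08 without MGNS 2 and 0.04 without MGNS 3. Fibroblast growth factor, epidermal growth factor, Notch, Wnt, TGF-beta and Hippo lists had medians between -0.17 and 0.01, with FGF10 and CCN1 the only calls. Over the 6 fits that left out an animal these medians lay between -0.34 and 0.13. EGFR was lower without overlap, at a log2 fold change of -0.29 ± 0.19 SE (adjusted p = 0.520, edgeR). The EGFR ligand TGFA had 1.44 ± 0.22 SE in all basal nuclei (adjusted p = 0.0534) and -0.61 without upper-layer nuclei.

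Cell division genes leaned upward inside the basal set, although nuclei with 2 or more of the division genes of the rule had been kept out. Of 23 genes of the G2/M list 22 had a log2 fold change above 0, with a median of 0.80 and no call. For 7 the MGHS animals were all higher, and for SMC4, a condensin subunit, all lower, against 8.19% and 14.6% over all genes. NUSAP1, a spindle protein, stood at 3.55, 4.01 and 4.15 CPM in the MGNS lambs and 7.80, 9.47 and 12.7 CPM in the MGHS lambs, a log2 fold change of 1.46 ± 0.31 SE (adjusted p = 0.104, edgeR). The median was 0.78 without upper-layer nuclei and 0.54 without MGHS 3, the animal with the highest cycling share. The 30 genes of the G1/S list had a median of 0.29, 0.10 without MGHS 3 and 0.16 without MGNS 2.

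Immune genes were lower on balance, but the interferon list turned its direction without 1 animal. All 16 antigen presentation genes and all 18 interferon response genes tested had log2 fold changes below 0, with medians of -0.73 and -0.96 and no call. Over all genes 6232 of 13144 were below 0. B2M, the light chain of MHC class I, stood at 1707, 2651 and 312 CPM in the MGNS lambs and 715, 252 and 681 CPM in the MGHS lambs, and MX1, an antiviral GTPase, at 27.5, 144 and 18.9 CPM in the MGNS lambs and 63.9, 22.6 and 10.2 CPM in the MGHS lambs. MGNS 2 was the highest animal for both, and the groups overlapped. Without MGNS 2 the interferon median was 0.26, with 12 of 19 genes above 0, and the antigen presentation median was -0.37, with 13 of 16 below 0. Over the other 5 fits that left out an animal the medians ran from -1.60 to -0.68 and from -1.06 to -0.60. In the NF-kB and cytokine list CASP1 was the only call, 9 of 29 genes were lower and 1 higher without overlap (14.6% and 8.19% over all genes), and the median was -0.17 (-0.30 without MGHS 3 and -0.28 without MGNS 1). NFKB1, a subunit of the factor itself, stood at 211, 343 and 292 CPM in the MGNS lambs and 137, 106 and 116 CPM in the MGHS lambs, and NOD2, a sensor of bacterial cell wall fragments, at 49.4, 62.3 and 36.5 CPM in the MGNS lambs and 22.5, 20.1 and 18.0 CPM in the MGHS lambs. Both were lower in every MGHS animal, with log2 fold changes of -1.13 ± 0.20 SE and -1.18 ± 0.22 SE. The summed T and NK cell markers of basal nuclei were lower in MGHS, as given above, but this rested mostly on BCL11B. Most of that sum was BCL11B, at 211, 229 and 238 CPM in the MGNS lambs and 169, 182 and 165 CPM in the MGHS lambs. SKAP1, the next in level, overlapped between the groups, as did CD3D, CD3E and CD2. The lower sum therefore does not show that T and NK cell transcripts as a set were lower. Of the 16 markers 2 were lower without overlap, BCL11B and LEF1, against 14.6% over all genes. PTPRC nuclei were fewer in every MGHS animal too, as given above. The part of transcripts from such cells in the immune lists was not tested.

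Of the transport and metabolic lists, only short-chain fatty acid and pH transport (SLC9A3) and nucleoside transport (SLC28A3) held a called gene. CA1 stood at 7261, 4887 and 3179.6 CPM in the MGNS lambs and 8896, 13813 and 13395 CPM in the MGHS lambs. Its MGHS animals were all above its MGNS animals, at a log2 fold change of 1.34 ± 0.40 SE, but the edgeR adjusted p was 0.204. SLC16A1, at the levels given above, was higher without overlap and not called. The 18 genes of short-chain fatty acid and pH transport had a median of 0.62, with 8 higher and 1 lower without overlap, against 8.19% and 14.6% over all genes, and 0.40 without MGNS 2. Of these, SLC9A2, SLC5A8 and SLC26A3 are genes of the upper layers. Without upper-layer nuclei the median of this list was 0.60 over 17 genes. In that setting 8 were higher and 0 lower without overlap, against 7.32% and 11.9% of all genes. Ketone and short-chain fatty acid metabolism had a median of 0.21 over 22 genes, glycolysis -0.06 over 22, oxidative phosphorylation 0.27 over 26 and cytosolic ribosome 0.30 over 73. Without MGNS 2 these medians were 0.07, -0.07, 0.08 and 0.08. Without MGHS 3 they were 0.25, -0.15, 0.14 and 0.23. The ketone median was 0.12 without MGHS 2, the ribosome median 0.46 without MGNS 1, and the glycolysis median 0.01 without MGNS 3 and -0.11 without MGHS 2. The differentiation list had a median of 1.67 over 20 genes, with 12 higher without overlap (8.19% over all genes) and no call. It was 0.86 over 18 genes without upper-layer nuclei, with 8 higher without overlap against 7.32% of all genes in that setting. Since 6 members of this list are among the 7 genes that picked out those nuclei, their removal lowers its median by construction.

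**Figure D5:**
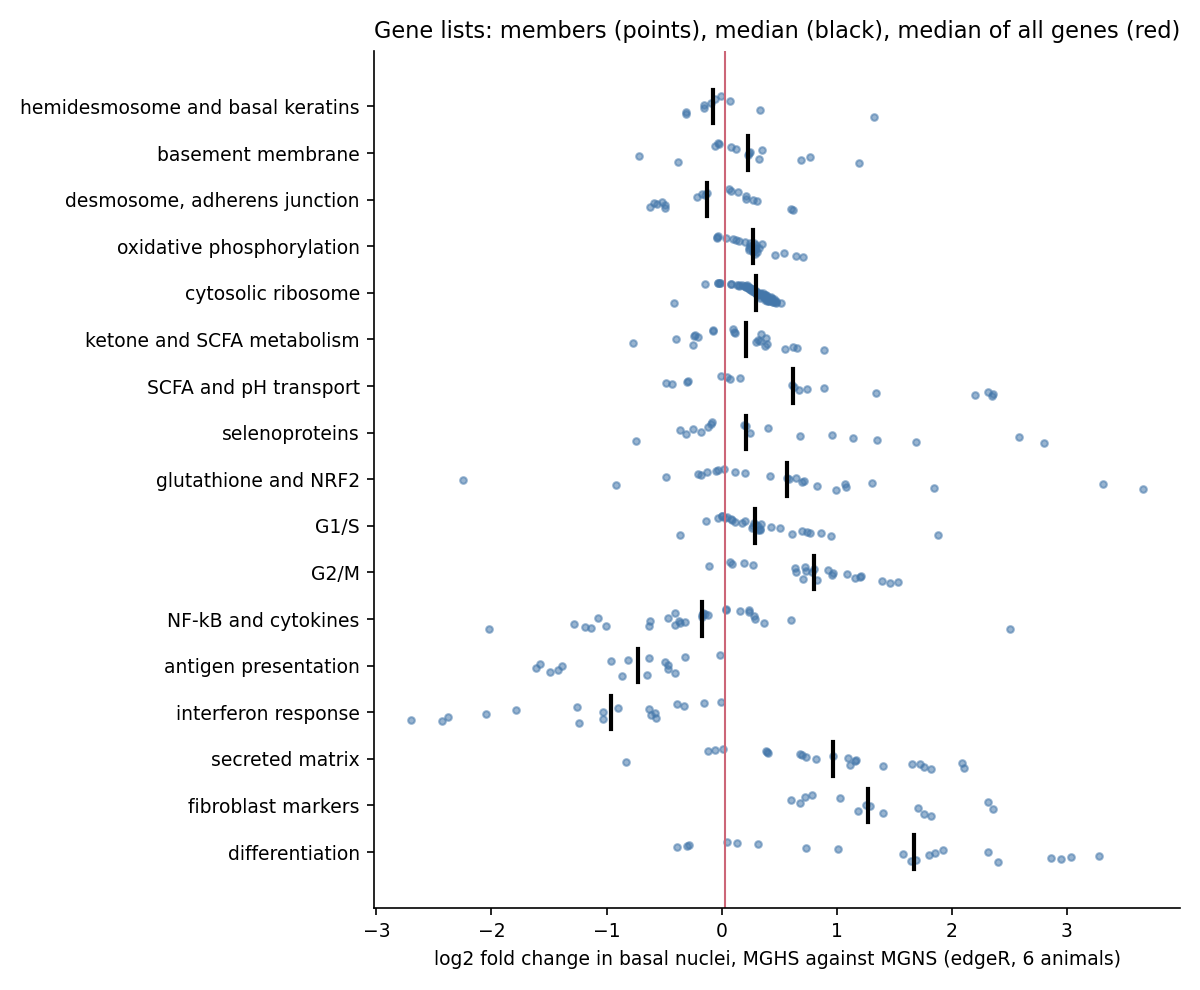
Log2 fold change of each list member in basal nuclei (points; MGHS against MGNS, 6 animals), the list median (black) and the median of all genes (red line at 0.03). Differentiation, fibroblast and secreted matrix lists lie to the right, interferon and antigen presentation lists to the left, and the hemidesmosome list is centred near 0.

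The change between groups was then compared with that in spinous nuclei of the same animals. The difference between layers passed the threshold for 49 of 13561 genes, or 0.361% (edgeR interaction test, Benjamini-Hochberg adjusted), 39 of them more positive in basal nuclei and 10, or 0.0737%, more negative. It was 0 without MGNS 1 and without MGHS 1, where 1349 and 1063 genes had an unadjusted p under 0.05, 1 without MGNS 2, 7 without MGHS 2, 23 without MGHS 3 and 70 without MGNS 3. DIP2C, a disco-interacting protein homolog, was 1 of those 10. It stood at 125, 180.0 and 173 CPM in the MGNS lambs and 179, 140.4 and 160.2 CPM in the MGHS lambs in basal nuclei, with overlap. In spinous nuclei it stood at 69.3, 41.7 and 71.7 CPM in the MGNS lambs and 272, 284 and 333 CPM in the MGHS lambs, all MGHS animals above all MGNS animals. The basal minus spinous difference in log2 fold change was -2.36 (adjusted p = 0.0221), and -2.60 without upper-layer nuclei. MSRA, which repairs oxidised methionine, had a difference of -1.45, with 146 ± 47.8 and 67.0 ± 14.0 CPM in basal nuclei of MGNS and MGHS against 104 ± 32.7 and 126 ± 33.0 CPM in spinous nuclei. GPX1 and SELENOW showed no such difference past the threshold, with adjusted p of 0.568 and 0.828. Without upper-layer nuclei 4 interactions passed, among them DIP2C.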

How the data were processed

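UMI counts per gene and barcode, deposited as whole numbers per the file headers, were made by Cell Ranger. The file headers name version 8.0.0, the submitters' processing notes version 2.1.1. Build, annotation, barcode filter and the treatment of overlapping, antisense or near-identical genes were not given in the sources used here. LOC genes and gene families are therefore less certain. Symbols for 26741 of 26741 gene numbers came from a table of ARS-UI_Ramb_v3.0, which served for naming alone.

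CPM, percentages and log2 values were computed here. The nuclei, the 34 function lists and the 10 cell type lists were chosen with earlier results of these data known. Counts were summed per animal over basal nuclei and tested with edgeR 4.0.16 (limma 3.58.1, R 4.3.3): genes passed filterByExpr (min.count 10), TMM scaled the sums, and robust quasi-likelihood fits gave F tests with Benjamini-Hochberg adjustment at 0.05. The SE of a fold change is its size over the root of F. The layer comparison added spinous nuclei, with the animal as block. Shares were compared by two-sided exact permutation tests in scipy 1.17.1 (Python 3.11.15, numpy 2.4.6, pandas 2.3.3), adjusted over 4 tests. Thinning drew 2000 UMIs per nucleus and left out 139 shallower basal nuclei. No doublet caller was run. Basal against other nuclei was not tested, because the rule chose the nuclei on transcripts. The test scripts were checked on simulated data. Alternatives covered DESeq2 1.42.0, limma-voom, filters, thinning and left-out animals.

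Genes were named by a rule: called genes with a symbol that is no LOC placeholder (up to 15 in each direction), the 12 higher and 12 lower with the smallest p without overlap, up to 4 per list, and 8 interactions. For basal against other nuclei these were the 25 and 10 genes with the largest ratio over spinous and cycling nuclei at 50 CPM or more. Among nuclei these were the 15 most variable genes. List members given between layers, the 7 upper-layer genes, AIF1L, SOBP, SPARC, PRSS22, SMC4, SOD2, GSR, NFE2L2, MX1 and B2M were chosen after their values were seen. No sequence is shown, and a few genes that these rules name are not reported here.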

Additional observations from a re-analysis of the deposited data

Results flagged for a closer look

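The change between MGHS and MGNS differed between basal and spinous nuclei for 49 genes (edgeR interaction test, Benjamini-Hochberg adjusted). Besides DIP2C (-2.36) and MSRA (-1.45), values are given for 6 others with the smallest p and for 4 other called genes, as the basal minus spinous difference in log2 fold change. It was 2.69 for HPSE, the heparanase that cuts heparan sulfate, which stood at 6.13 ± 3.43 and 20.4 ± 6.54 CPM in basal nuclei of MGNS and MGHS and at 445 ± 171 and 230.2 ± 74.5 CPM in spinous nuclei (mean ± SD, n = 3). It was 2.89 for the vitamin B12 carrier TCN1, 1.59 for the ubiquitin ligase subunit FBXO32 and 2.68 for the sphingosine-1-phosphate transporter SPNS2. It was 2.07 for MYZAP, 2.11 for SAMD8, 1.57 for the mitophagy receptor BNIP3L and 2.89 for AIF1L. The unnamed genes LOC121816833 and LOC101108745 had 4.81 and 1.94. LOC121816833 was close to 0 in basal nuclei of the MGNS lambs, at 0.296, 0 and 0.461 CPM. In their spinous nuclei it stood at 0.679, 1.97 and 14.3 CPM. It passed the threshold in 1 of 10 alternatives, and its adjusted p without upper-layer nuclei was 0.118 (edgeR interaction test). HPSE, TCN1, FBXO32, SPNS2, MYZAP, SAMD8, BNIP3L, AIF1L and LOC101108745 were all higher in spinous than in basal nuclei in every animal. For FBXO32 the ratio of spinous to basal level was smaller in MGHS, at 423 ± 272 CPM in spinous and 166 ± 135 CPM in basal nuclei. In MGNS these levels were 210 ± 68.0 and 23.9 ± 6.34 CPM. Without basal nuclei holding over 10 upper-layer UMIs, HPSE had 0.80, TCN1 0.41, SPNS2 0.74, MYZAP 0.15, BNIP3L 0.11, LOC101108745 0.45, AIF1L 2.15, LOC121816833 4.73, DIP2C -2.60 and MSRA -1.40. FBXO32 and SAMD8 were among the 7 genes used to find those nuclei. Falls in this setting are partly set by that choice of nuclei.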

How the results depend on the processing

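The 30 called genes became 31 with RLE size factors, 35 with at least 1000 genes per nucleus, 148 with no low-count filter, 424 with DESeq2 and 93 with limma-voom. They became 49 with at least 5 basal genes, 55 after thinning, 48 without the 5% of nuclei with most UMIs, 16 with at most 2% mitochondrial UMIs and 2 without nuclei holding markers of another cell type (918 nuclei left). Leaving out an animal gave 0 to 64. Alternatives added after seeing the data gave 16 without fibroblast markers, 1 without upper-layer nuclei and 2 with the level of PTPRC nuclei subtracted. With the replicate number as a block 65 were called; the labels do not say that a number marks shared animals or days, and same-numbered animals deviated together with r = -0.15, -0.03 and 0.16, so the pairing was not used.

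The 49 layer differences became 30 with RLE, 550 with no low-count filter, 182 with DESeq2, 43 after thinning, 1 without markers of another cell type and 0 to 70 without an animal. In the alternatives added later they became 2 without fibroblast markers and 4 without upper-layer nuclei. In the last setting FBXO32 (-0.26) and SAMD8 (-0.0654) changed sign. In a tally of named results over the alternatives, 496 values kept direction and side of the threshold, 321 lost the call, 42 gained it and 2 reversed. That tally did not cover every named gene. TGFA also changed sign without upper-layer nuclei, as given above. Which causes lie behind these counts was not tested.

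The difference in basal share (1.601 points) was -4.03 with nuclei without PTPRC as denominator and -0.100 to 2.55 without an animal. The difference in cycling share was 8.92 to 19.1 points without an animal. With 3 animals a group no exact permutation test can go below 0.1. List medians moved by about 0.02 with RLE.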
